A study of Mus musculus with 22 samples.

Results

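The step from day 2 to day 4 of adipocyte differentiation was examined in C3H 10T1/2 cells with DNMT3A W330R-R181E, a double mutant. C3H 10T1/2 is a mouse mesenchymal cell line that can be turned into adipocytes. Of the 22 libraries of the series, 4 belong to this step, namely 2 replicates on each day, which were picked by the genotype, day and replicate number of their labels. In the count table the second change is written R181A in the headers of these libraries, whereas the labels write R181E, and the libraries were matched by the other parts of their names. For the first 2 days the serum-containing medium held dexamethasone (1 µM), troglitazone (5 µM), isobutylmethylxanthine (0.5 mM) and insulin (5 µg/mL). Only insulin was kept after that. The medium thus changed between the days compared, so that time and medium cannot be told apart. The same step in cells with DNMT3A WT and with DNMT3A W330R, 4 libraries each, was used for comparison. The labels do not say how DNMT3A was introduced, whether each line is 1 clone or what a replicate number stands for, so p-values measure only the spread between these libraries, which may be technical.

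DNMT3A places new methyl groups on DNA cytosines. W330 lies in its PWWP domain, which reads methylated lysine on histone H3, and R181 lies in the stretch before that domain. Differentiation of such cells into adipocytes is started by raising cAMP, activating the glucocorticoid receptor and activating PPARG. CEBPB and CEBPD respond early, and PPARG and CEBPA then maintain the genes for lipid storage and for hormones such as adiponectin. Mesenchymal precursors are also known for collagen, elastin and an actin cytoskeleton, and for the capacity to form cartilage and bone.

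Between 12224241 and 22710246 reads were counted on genes in the 4 libraries, against 8859501 to 47453908 in all 22, and the share of mitochondrial transcripts was 5.89 to 6.21% in the 4. Levels are given as CPM, the reads of a gene scaled by the library total and TMM factors. Dnmt3a had 77.3 and 148 CPM at day 2 (replicates 1 and 2, as in every pair of values below) and 68.5 and 121 CPM at day 4 (log2 fold change -0.25 ± 0.40 (SE), adjusted p = 0.731). Gene counts do not show which allele was read. The summed level of 10 adipocyte markers was 51.8 to 59.6 CPM in the undifferentiated WT and W330R libraries, against 4355 and 3322 CPM at day 2 and 3342 and 3081 CPM at day 4 of the double mutant. Fabp4, the adipocyte fatty acid carrier, made up most of the day 2 sum, at 3037 and 2547 CPM, against 2.82 to 4.49 CPM in undifferentiated libraries. Adipoq had 70.6 and 48.7 CPM at day 2, against at most 0.898 CPM in undifferentiated libraries. Cd36, at 10.1 and 2.82 CPM, and Cfd, at 5.01 and 4.95 CPM, were low at day 2. The labelled adipocyte course was thus visible at both days, mainly through Fabp4 at day 2. Counts of the replicates differed by more than counting noise, with a chi-square per degree of freedom of 103 at day 2 and 70.5 at day 4, against 3.10 and 3.40 in the undifferentiated pairs. Bulk RNA cannot tell fewer cells of a type from less RNA per cell.

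Between day 2 and day 4, 1555 of 14520 genes tested changed at a Benjamini-Hochberg adjusted p under 0.05, which is what "called" means below (edgeR quasi-likelihood test with a spread shared by all 22 libraries). Of these, 926 were higher at day 4, 6.38% of the genes tested, and 629 were lower, 4.33%. The median log2 fold change over all genes tested was 0, and the libraries did not overlap in 26.2% of genes with day 4 higher and in 24.6% with day 4 lower. The rises included hormones of adipocytes, smooth muscle actin and its partners, fibrous matrix and the enzymes of cholesterol synthesis. The falls included genes induced by glucocorticoids or cAMP and targets of the amino acid stress factor ATF4. The calls rest on the spread of the other libraries: a fit of days 2, 4 and 6 alone gave 857 calls, and edgeR on the 4 libraries alone gave 0, with 2071 genes at an unadjusted p under 0.05 and 1525 of the 1555 genes with their direction kept. Without day 2 replicate 1, day 2 replicate 2, day 4 replicate 1 or day 4 replicate 2, the count was 2311, 329, 346 or 730, and 196 of the 1555 genes were called in the same direction in all 4 of these fits.

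**Figure D1:**
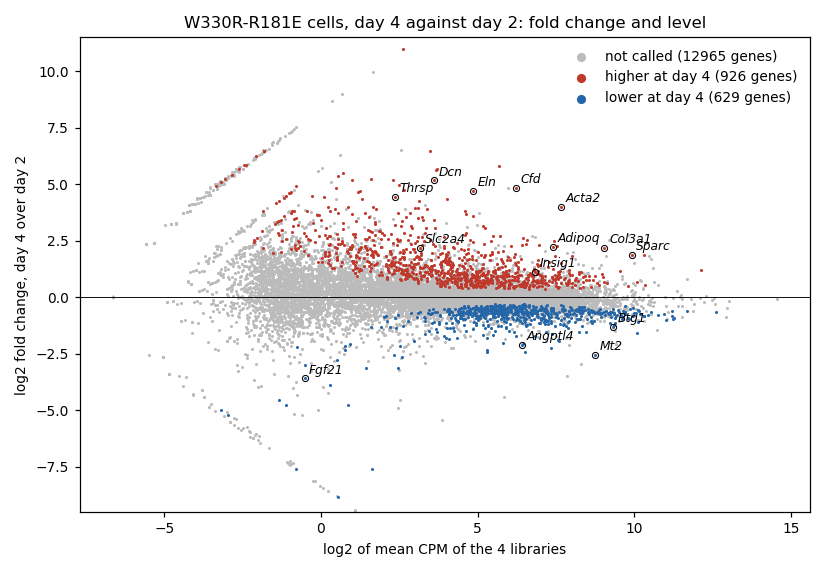
Log2 fold change of day 4 over day 2 (y axis) against the log2 of the mean CPM of the 4 libraries (x axis) for each of the 14520 genes tested in W330R-R181E cells. The 926 genes called higher are red, the 629 called lower are blue and the rest are grey; Cfd, Eln and Acta2 stand out among abundant genes that rose, and Mt2 and Btg1 among those that fell.

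Among genes of a mean log2 CPM of at least 3 whose libraries did not overlap, the largest rise was that of Cfd, which encodes the adipocyte-secreted complement protease adipsin. Cfd had 5.01 and 4.95 CPM at day 2 and 192 and 94.9 CPM at day 4 (log2 fold change 4.85 ± 0.60 (SE), adjusted p = 0.000764). Eln, which encodes the elastic fibre protein elastin, followed, with 3.20 and 1.24 CPM at day 2 and 84.7 and 25.7 CPM at day 4 (4.71 ± 0.78, adjusted p = 0.003). Acta2, smooth muscle actin, rose 15.99-fold, from 35.0 and 13.6 CPM to 538 and 233 CPM (adjusted p = 0.00685). In all 3 genes replicate 1 was the higher library at both days. The other 7 of the 10 largest rises were Drp2, Srpx2, Nov, Timp4, Capn6, Lgals9 and Gpt, with rises of 6.68-fold (Gpt, alanine aminotransferase) to 14.2-fold (Drp2, a relative of dystrophin). Nov, a secreted matrix-associated protein of the CCN family, went from 5.66 and 3.32 CPM to 76.3 and 31.7 CPM. Timp4, an inhibitor of matrix metalloproteinases, had 12.6 and 2.33 CPM at day 2 and 69.3 and 58.8 CPM at day 4. Timp4 lies within Syn2 on the opposite strand, and whether the counting used strand is not given. Without the libraries in the order above, 10, 4, 5 and 9 of the 10 rises were still called, and Cfd, Srpx2, Lgals9 and Gpt were called each time.

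Among genes of the same level and without overlap, the largest fall was that of Mt2, a metallothionein that binds zinc and responds to glucocorticoids, from 294 and 1170 CPM to 66.0 and 183 CPM (5.89-fold lower, adjusted p = 0.038). Klf10, a zinc finger factor induced by TGF-beta, fell 5.32-fold, from 71.0 and 61.7 CPM to 11 and 13.9 CPM (adjusted p = 0.00011). The day 2 libraries of Klf10 were close to each other, whereas those of Mt2 differed widely. Spry1, Gadd45g, Angptl4, Anxa8, Pde4b, Slc16a1 and Emb were also among the 10, with falls of 3.71-fold (Emb) to 5.02-fold (Spry1, an antagonist of growth factor signalling). Slc16a1 encodes a lactate transporter and Emb encodes embigin, a membrane partner of transporters of that family. Emb had 293 and 305 CPM at day 2 and 60.4 and 101 CPM at day 4, and Slc16a1 had 224 and 393 CPM and then 42.7 and 119 CPM. Without each library in turn, 9, 6, 4 and 8 of the 10 falls were still called, and Klf10, Spry1, Angptl4 and Emb were called each time.

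**Figure D2:**
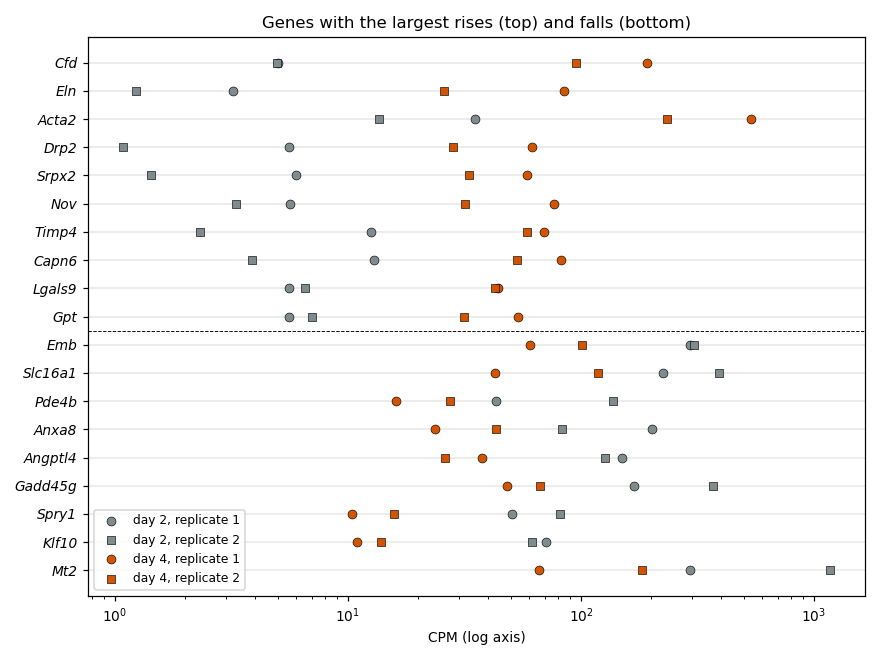
CPM in each of the 4 libraries (log axis) for the genes with the 10 largest rises (above the dashed line) and for 9 of those with the 10 largest falls (below it); grey is day 2, orange is day 4, circles are replicate 1 and squares replicate 2. Day 2 and day 4 do not overlap in any of these genes, which their choice required; the replicates lie close together on both days for Lgals9, at 5.58 and 6.54 CPM and then 44.1 and 42.8 CPM.

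Genes of the adipocyte moved in both directions. Of 18 tested adipokines and secreted adipocyte proteins, 6 were called higher (33.3%, against 6.38% of all genes) and 3 lower (16.7%, against 4.33%). Adipoq, the hormone adiponectin, rose from 70.6 and 48.7 CPM to 305 and 249 CPM (4.65-fold, adjusted p = 0.00225). Sparcl1, a secreted matrix protein, rose from 1.48 and 1.19 CPM to 16.1 and 23.1 CPM (adjusted p = 0.000386). Apoe, Apoc1 and Rarres2 were the others called higher, and Rarres2, which encodes chemerin, had 0.0821 and 1.78 CPM at day 2 and 7.23 and 17.2 CPM at day 4. Angptl4 and Vegfa were among the 3 called lower. Angptl4, an inhibitor of lipoprotein lipase, fell from 151 and 127 CPM to 37.8 and 26.1 CPM, and Vegfa, a growth factor for blood vessels, fell from 209 and 179 CPM to 89.8 and 98.0 CPM (2.06-fold, adjusted p = 0.000386). Adipoq, Cfd, Sparcl1, Angptl4 and Vegfa were called without each of the libraries, and of the 9 calls 7, 6, 5 and 7 were kept. Leptin (Lep) had at most 1 read in any of the 4 libraries, where 3 reads was taken as the smallest count the depth can show.

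Of the genes of lipid uptake, synthesis and storage, 3 of 17, 3 of 29 and 4 of 17 were called. The uptake list had 5.88% higher and 11.8% lower, the synthesis list 10.3% higher and 0% lower and the droplet list 11.8% in each direction, against 6.38% and 4.33% of all genes. Slc2a4, the insulin-responsive glucose transporter, rose from 4.35 and 2.18 CPM to 17.6 and 11.7 CPM (4.55-fold, adjusted p = 0.00374), the single rise among 17 tested uptake genes. Fabp5, a fatty acid carrier, and Irs2, an adaptor of the insulin receptor, were the 2 that fell, by 1.05 and 1.02 on the log2 scale (adjusted p = 0.0354 and 0.0239). Fabp5 shares 5.48% of its 50-base sequences with other annotated genes, so that some of its reads may be assigned to copies or from them. Both Fabp5 and Irs2 lost their call without day 2 replicate 1, day 4 replicate 1 or day 4 replicate 2 and in the fit of days 2, 4 and 6. The adipocyte fatty acid carrier Fabp4 had 3037 and 2547 CPM at day 2 and 1252 and 1585 CPM at day 4, a log2 fold change of -0.98 ± 0.47 (SE) that did not pass the test (adjusted p = 0.197). Its libraries did not overlap. Of 29 lipogenic enzymes and cofactors, 3 were called higher and 0 lower. These were Thrsp, a nuclear protein that promotes lipogenesis (0.657 and 0.297 CPM, then 11.1 and 8.70 CPM, adjusted p = 0.000125), the desaturase Fads1 (184 and 162 CPM, then 363 and 327 CPM) and the acetyl-CoA carboxylase Acacb (6.98 and 4.01 CPM, then 15.1 and 14.2 CPM). Acacb was not called without day 2 replicate 2, day 4 replicate 1 or day 4 replicate 2. Fasn, fatty acid synthase, had 338 and 232 CPM at day 2 and 305 and 325 CPM at day 4 (log2 fold change 0.14 ± 0.25 (SE), adjusted p = 0.757), and Scd1 and Lpl also had libraries that overlapped. Of 17 proteins of the lipid droplet and of lipolysis, 2 were called higher and 2 lower. Cidec, which enlarges lipid droplets, had 312 and 269 CPM and then 535 and 589 CPM (1.93-fold, adjusted p = 0.0155), and Cav1, the caveolar coat protein, had 13.2 and 3.42 CPM and then 56.6 and 36.0 CPM (5.72-fold, adjusted p = 0.0105). Hilpda, an inhibitor of lipolysis, and Fitm2, a protein of droplet formation, fell by 1.11 and 0.75 on the log2 scale. Plin1, perilipin, had 70.8 and 80.2 CPM at day 2 and 35.1 and 58.7 CPM at day 4 (adjusted p = 0.377). Of the 4 calls in the droplet list, 3 were kept without day 2 replicate 1, 0 without day 2 replicate 2, 0 without day 4 replicate 1 and 1 without day 4 replicate 2.

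Among 24 tested transcription factors of adipogenesis, 4 were called lower (16.7%) and 1 higher (4.17%), and their median log2 fold change was 0.07. Cebpb had 375 and 681 CPM at day 2 and 155 and 203 CPM at day 4 (log2 fold change -1.56 ± 0.37 (SE), adjusted p = 0.0181). Cebpd had 213 and 386 CPM and then 94.9 and 166 CPM (adjusted p = 0.0419). Klf5, another early activator, fell 3.52-fold (adjusted p = 0.0126), and Zfp423, a factor of committed preadipocytes, fell 1.70-fold (adjusted p = 0.0131). The rise was that of Nr1h3, the oxysterol receptor LXR-alpha, from 2.05 and 3.42 CPM to 9.48 and 9.22 CPM (3.37-fold, adjusted p = 0.00554). Nr1h3 was called without each library, whereas without day 4 replicate 1 none of the 4 falls was called. Pparg had 43.7 and 43.7 CPM at day 2 and 42.7 and 53.3 CPM at day 4 (0.14 ± 0.27, adjusted p = 0.791), and Cebpa had 39.8 and 53.8 CPM and then 25.7 and 43.9 CPM (-0.43 ± 0.31, adjusted p = 0.397). Neither was called, and for Pparg and Cebpa the libraries of the 2 days overlapped. Within each replicate number Cebpa was lower at day 4, with log2 steps of -0.63 and -0.29.

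Of 24 tested genes of cholesterol synthesis and uptake, 13 were called higher (54.2%) and 0 lower, and 23 had a positive log2 fold change, with a median of 0.76. Insig1, the sterol-regulated brake on the SREBP factors, rose from 74.3 and 71.6 CPM to 175 and 140 CPM (2.16-fold, adjusted p = 0.000192). Along the pathway Mvk, mevalonate kinase, went from 19.5 and 22.9 CPM to 36.9 and 41.0 CPM (adjusted p = 0.0043), and Sqle, squalene epoxidase, from 55.3 and 81.1 CPM to 137 and 115 CPM (adjusted p = 0.0123). In these 3 genes both day 4 libraries were above both day 2 libraries. Stard4, a sterol carrier, rose 2.42-fold, and Fdft1, Nsdhl, Fdps, Sc5d, Msmo1, Tm7sf2 and Srebf2, the factor SREBP2 itself, were among the others called. Hmgcs1, an early enzyme of the pathway, had 319 and 338 CPM and then 275 and 289 CPM (-0.22 ± 0.26, adjusted p = 0.621), the single negative value of the list. Of the 13 calls 7, 9, 2 and 11 were kept without day 2 replicate 1, day 2 replicate 2, day 4 replicate 1 and day 4 replicate 2, and Insig1 and Mvk were called each time. The fit of days 2, 4 and 6 gave 11.

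Promoters of most of these genes held a short element that other lists also held. In RefSeq promoter windows of 250 bases before to 50 bases after each start (build GRCm38.p6, whereas the notes of the submitters name GRCm39), CCAAT was found on either strand in 16 of the 17 tested cholesterol genes with a window (94.1%), against 42.9% of 10261 tested genes with a window. CCAAT is the sequence read by the factor NF-Y. Among the other lists counted, its share ran from 31.2% (basement membrane) to 77.1% (mitosis and spindle genes, of which 0 were called). Hmgcs1, which did not rise, was among the 16 cholesterol genes with a match. A gene with several windows counts once. A match describes the letters and not a bound site. The 250 bases before the start are shown for Insig1, Mvk and Tm7sf2, the called members with a match and the smallest adjusted p, with CCAAT or its reverse complement in capitals.
Insig1, chr5:28071162-28071411, + strand: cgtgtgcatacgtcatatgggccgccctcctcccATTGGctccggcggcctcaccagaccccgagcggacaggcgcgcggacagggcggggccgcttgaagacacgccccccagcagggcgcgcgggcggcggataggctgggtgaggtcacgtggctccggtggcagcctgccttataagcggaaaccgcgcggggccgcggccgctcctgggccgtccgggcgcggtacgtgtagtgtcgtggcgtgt
Mvk, chr5:114444019-114444268, + strand: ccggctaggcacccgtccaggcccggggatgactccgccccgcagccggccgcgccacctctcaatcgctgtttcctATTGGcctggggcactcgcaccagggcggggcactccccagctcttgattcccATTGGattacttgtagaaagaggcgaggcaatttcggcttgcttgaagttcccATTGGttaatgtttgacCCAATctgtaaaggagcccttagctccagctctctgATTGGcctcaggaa
Tm7sf2, chr19:6067851-6068100, - strand: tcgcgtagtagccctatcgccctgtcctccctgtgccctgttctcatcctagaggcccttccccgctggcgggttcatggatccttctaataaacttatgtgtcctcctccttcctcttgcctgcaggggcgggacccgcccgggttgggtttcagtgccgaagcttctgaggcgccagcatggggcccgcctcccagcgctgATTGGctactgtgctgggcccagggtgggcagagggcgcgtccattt
Insig1 and Tm7sf2 held 1 match each in this stretch, which began 216 and 47 bases before the start, and Mvk held 5.

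Genes of smooth muscle contraction and of the actin cytoskeleton, many of them targets of the serum response factor SRF, also rose. Of 24 tested, 12 were called higher (50%) and 0 lower, and the median log2 fold change was 1.29. Beside Acta2, the actin-nucleating protein Lmod1 had 1.64 and 1.29 CPM at day 2 and 17.6 and 16.8 CPM at day 4 (11.8-fold, adjusted p = 0.000429). Mylk, the kinase that switches on smooth muscle myosin, had 13.5 and 14.7 CPM and then 23.3 and 34.6 CPM (2.06-fold, adjusted p = 0.00886). The tropomyosins Tpm1, Tpm2 and Tpm4, the myosin light chain Myl9, calponin Cnn2, filamin Flna, vinculin Vcl and Synpo2 were also called, from Vcl at 0.60 to Myl9 at 3.04 on the log2 scale. The SRF partner myocardin (Myocd) was called as well, at 0.164 and 0 CPM and then 1.58 and 0.435 CPM, levels of few reads. Other genes by which smooth muscle is defined stayed low: Myh11 had 3.53 and 2.03 CPM and then 1.28 and 1.52 CPM, Tagln 1.64 and 1.93 CPM and then 2.31 and 2.00 CPM, and Cnn1 at most 0.652 CPM. None of these 3 passed the test (adjusted p of 0.122 to 0.72). Without day 2 replicate 2, 1 of the 12 calls was kept (Lmod1), without day 4 replicate 1 or 2 there were 4 and 5, and without day 2 replicate 1 all 12. The fit of days 2, 4 and 6 gave 8.

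The CArG box, the sequence bound by SRF, was found in the windows of 4 of 20 such genes (20%), against 1.61% of tested genes with a window. The list was chosen partly as SRF genes, so this excess may follow from the choice and does not bear on the step. The 4 were Cnn2, Myl9, Srf and Vcl. Srf had 47.0 and 45.6 CPM and then 50.3 and 69.5 CPM (adjusted p = 0.422), whereas the other genes were called. Their 250 bases before the start (GRCm38.p6) follow, with the CArG box in capitals.
Vcl, chr14:20929148-20929397, + strand: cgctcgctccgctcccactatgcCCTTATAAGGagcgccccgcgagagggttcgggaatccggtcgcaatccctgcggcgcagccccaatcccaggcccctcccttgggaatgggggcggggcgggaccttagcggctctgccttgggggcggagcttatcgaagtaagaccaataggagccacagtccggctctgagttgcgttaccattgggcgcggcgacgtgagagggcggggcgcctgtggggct
Myl9, chr2:156775214-156775463, + strand: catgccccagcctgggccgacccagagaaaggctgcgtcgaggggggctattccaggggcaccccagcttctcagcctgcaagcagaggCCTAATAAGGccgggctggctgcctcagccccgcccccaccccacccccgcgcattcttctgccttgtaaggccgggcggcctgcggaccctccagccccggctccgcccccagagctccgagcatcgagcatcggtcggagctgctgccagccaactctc
Cnn2, chr10:79988350-79988599, + strand: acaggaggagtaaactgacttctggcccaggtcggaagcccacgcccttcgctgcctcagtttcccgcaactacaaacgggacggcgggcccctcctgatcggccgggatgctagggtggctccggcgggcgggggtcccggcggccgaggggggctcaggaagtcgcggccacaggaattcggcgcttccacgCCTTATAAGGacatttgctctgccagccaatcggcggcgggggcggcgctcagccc
The match began 227 bases before the start in Vcl, 161 in Myl9 and 56 in Cnn2. Vcl had 400 and 314 CPM at day 2 and 445 and 640 CPM at day 4, Myl9 2.71 and 0.743 CPM and then 15.1 and 11.6 CPM, and Cnn2 68.3 and 49.1 CPM and then 191 and 179 CPM.

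Fibrillar collagens and other fibrous matrix genes made up another group with many rises: 11 of 39 were called higher (28.2%) and 2 lower (5.13%), with a median log2 fold change of 1.17. Col3a1, which forms fine collagen fibrils, had 147 and 236 CPM at day 2 and 928 and 811 CPM at day 4 (4.54-fold, adjusted p = 0.000386). Col1a2, a chain of collagen I, had 675 and 435 CPM and then 2351 and 1626 CPM (3.58-fold, adjusted p = 0.0031), and Sparc, a collagen-binding protein, had 363 and 473 CPM and then 1786 and 1255 CPM (3.63-fold, adjusted p = 0.000793). The partner chain Col1a1 had 64.3 and 202 CPM and then 403 and 445 CPM, which did not pass the test (log2 fold change 1.67 ± 0.52 (SE), adjusted p = 0.0562). Dcn, the small proteoglycan decorin, showed a large fold from a low start, with 1.31 and 0.149 CPM at day 2 and 37.4 and 9.48 CPM at day 4 (adjusted p = 0.0024). The proteoglycan Vcan and the collagen Col5a1 were the 2 that fell, by 0.80 and 0.73 on the log2 scale. Vcan had 2117 and 2238 CPM and then 1184 and 1322 CPM. In the basement membrane list 3 of 20 were called higher and 3 lower (15% in each direction, against 6.38% and 4.33% of all genes). Sparcl1, counted with the adipokines as well, was among those higher. The laminin chain Lamb1 had 621 and 1024 CPM and then 309 and 429 CPM (adjusted p = 0.0169), whereas Lamb2, another laminin chain, rose by 0.93 on the log2 scale. Col6a2, a chain of the beaded filament collagen VI, had 3508 and 2586 CPM and then 1555 and 1869 CPM (adjusted p = 0.0205), a call lost without day 2 replicate 1, day 4 replicate 1 or day 4 replicate 2. Of the 13 fibrous matrix calls 9, 4, 5 and 8 were kept without the libraries in the same order, and Sparc, Dcn, Col3a1 and Col1a2 were called each time. The fit of days 2, 4 and 6 gave 7 higher and 1 lower, DESeq2 20 higher and 2 lower, and the fit without day 2 replicate 1 gave 16 higher and 2 lower.

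Markers of bone and cartilage were read in the same libraries. The summed level of 9 chondrocyte markers was 2693 and 331 CPM at day 2 and 6204 and 1502 CPM at day 4. Col2a1, the collagen of cartilage, was among them at 1373 and 41.1 CPM and then 3883 and 655 CPM. Replicate 1 was higher on both days, and the difference between days did not pass the test for Col2a1 (adjusted p = 0.469). Undifferentiated WT and W330R libraries had 476 to 795 CPM of Col2a1. Comp, a pericellular matrix protein, was the single chondrocyte marker called, at 16.01 and 9.01 CPM and then 51.1 and 26.0 CPM (adjusted p = 0.0402, lost without day 2 replicate 2 or day 4 replicate 1). The 9 osteoblast markers summed to 106 and 237 CPM at day 2 and 462 and 495 CPM at day 4, with the osteoblast factor Sp7 at 0 in all 4 libraries. Col1a1 makes up most of the day 4 sum and is shared with the matrix list. Dmp1, an osteocyte gene, was called higher from under 0.1 CPM, and Alpl, an alkaline phosphatase, lower from 2.30 and 2.72 CPM to 0.182 and 0.522 CPM, and both lost the call without day 2 replicate 2 and without day 4 replicate 1. Macrophage markers summed to 5.78 to 16.98 CPM, with Tyrobp, C1qa and C1qb at 0. Of these Cd68, a lysosomal protein, was called lower, at 8.78 and 16.1 CPM and then 3.77 and 2.74 CPM, and Lyz2, which shares 15.4% of its sequence with Lyz1, higher, at no more than 2.74 CPM. Skeletal muscle markers summed to 0.941 to 2.13 CPM, with Myod1, Myog, Myf5 and Ckm at 0. Endothelial markers reached 5.23 CPM with Cdh5 and Cldn5 at 0, and epithelial markers 2.31 CPM with Epcam at 0. The part of the chondrocyte and osteoblast markers in the matrix rises was not tested.

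Some genes known to respond to the inducers of the first 2 days were lower at day 4. Of 23 tested glucocorticoid-induced genes, 4 were called lower (17.4%) and 0 higher, with a median log2 fold change of -0.69. DESeq2 called 9 lower and 1 higher, and the fit without day 2 replicate 1 called 8 lower and 0 higher with a median of -1.06, against 1 lower and 1 higher and a median of -0.31 without day 2 replicate 2. The 4 were Mt2, Angptl4, Cebpd and Gadd45g, a stress-induced growth arrest gene that had 169 and 370 CPM and then 48.0 and 66.7 CPM (adjusted p = 0.0148). Angptl4 was also counted among the adipokine calls, and Cebpd among the calls of adipogenic transcription factors. Fkbp5 and Tsc22d3, known targets of the glucocorticoid receptor, did not pass the test: Fkbp5 had 512 and 959 CPM and then 238 and 588 CPM (-0.83 ± 0.66, adjusted p = 0.444), and Tsc22d3 had 106 and 228 CPM and then 59.0 and 147 CPM (adjusted p = 0.36). In both genes replicate 2 was above replicate 1 on each day, and the days overlapped. Within each replicate number both genes were nevertheless lower at day 4, for Fkbp5 by log2 steps of -1.10 and -0.70. Of 21 cAMP- and CREB-induced genes, 3 were called lower (14.3%) and 0 higher, with a median of -0.70. In the fit without day 2 replicate 1 this median was -0.18. A positive log2 fold change was seen in 6 of the 21. Crem, another member, had 6.65 and 8.12 CPM and then 6.50 and 7.48 CPM (adjusted p = 0.874). Pde4b and Pde4d, which encode phosphodiesterases that break down cAMP, had 43.3 and 137 CPM and then 16.1 and 27.4 CPM, and 82.4 and 61.4 CPM and then 35.7 and 36.5 CPM (adjusted p = 0.0173 and 0.00419). The kinase Sik1 had 127 and 119 CPM and then 65.7 and 75.1 CPM (adjusted p = 0.00393). All 7 calls of the lists had their undifferentiated mean below the day 4 mean, as had 50.7% of all genes called lower and 51.8% of all genes with a lower day 4 mean. Of the 4 glucocorticoid calls 4, 1, 1 and 2 and of the 3 cAMP calls 3, 2, 1 and 3 were kept without the libraries in the same order, and Angptl4 and Pde4d were called each time.

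TGACG, the core of the CRE sequence bound by CREB, was found on either strand in 12 of 16 cAMP-induced genes with a window (75%), against 33.8% of tested genes with a window. The list was chosen as genes induced by cAMP and CREB, so this excess may follow from the choice and does not bear on the step. Of the called members with a window, Pde4b held it and Pde4d did not. The stretch of Pde4b with its match, 34 bases before the start, is shown with TGACG or its reverse complement in capitals (GRCm38.p6).
Pde4b, chr4:102421305-102421554, + strand: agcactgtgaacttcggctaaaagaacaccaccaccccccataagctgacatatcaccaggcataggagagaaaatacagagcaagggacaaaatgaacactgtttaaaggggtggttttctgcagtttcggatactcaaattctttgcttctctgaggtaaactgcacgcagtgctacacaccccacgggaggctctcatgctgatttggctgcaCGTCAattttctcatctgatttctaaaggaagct

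Among targets of ATF4, the factor of the response to amino acid shortage, the calls were falls. Of 25 tested, 6 were called lower (24%, against 4.33% of all genes) and 0 higher. None had a positive log2 fold change, and the median was -0.65. In 18 of the 25 the libraries did not overlap with day 4 lower, against 24.6% of all genes. Asns, asparagine synthetase, had 271 and 320 CPM and then 167 and 166 CPM (1.77-fold lower, adjusted p = 0.0202). Slc7a5, a transporter of large amino acids, had 200 and 166 CPM and then 89.4 and 98.6 CPM (adjusted p = 0.0133), and Sesn2, a leucine sensor upstream of mTORC1, had 169 and 188 CPM and then 83.5 and 105 CPM (adjusted p = 0.0128). The serine pathway enzymes Shmt2 and Psat1 fell by 0.70 and 0.59 on the log2 scale. Fgf21, a hormone, was called from 0.657 and 1.88 CPM to 0.122 and 0.0870 CPM, where both day 4 libraries were below the 3-read floor. Atf4 itself had 449 and 564 CPM and then 300 and 320.0 CPM (adjusted p = 0.109). Of these 6 calls, 6, 1, 0 and 1 were kept without the libraries in the same order, and the fit of days 2, 4 and 6 gave 3.

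Nuclear genes of the respiratory chain were lower at day 4 in sign, but few were called without a term for replicate number. With that term (a replicate block) 11 of 63 tested were called lower, beside 1078 of all 14520 genes. Without it, 3 had a positive log2 fold change, the median was -0.44, and 2 were called lower (3.17%, against 4.33% of all genes). These were Cycs, cytochrome c, and Ndufa12, a subunit of complex I, at -1.13 ± 0.30 and -0.94 ± 0.24 (SE, log2; adjusted p = 0.0272 and 0.0232). They share 25.9% and 17.7% of their 50-base sequences with annotated copies, so that their counts are uncertain. Cycs lost its call in each of the 4 fits without a library, and Ndufa12 kept it in the fit without day 2 replicate 1 and in no other of the 4. Without that library 13 members were called lower. Of 41 genes of fatty acid oxidation and the TCA cycle 0 were called by edgeR and 0 by DESeq2, with 2 at an unadjusted p under 0.05 and a median of -0.14. Among 12 thermogenic genes 2 were called higher (16.7%, against 6.38% of all genes) and 1 lower (8.33%, against 4.33%). Adrb3, the beta3-adrenergic receptor, was higher, at 0.657 and 1.09 CPM and then 4.68 and 3.04 CPM. Cox8b, a cytochrome oxidase subunit of brown fat, was higher too, at 1.31 and 0.594 CPM and then 8.75 and 4.61 CPM. Pdk4, the kinase that switches off pyruvate oxidation, fell from 290 and 347 CPM to 109 and 150 CPM (adjusted p = 0.0126). Adrb3, Cox8b and Pdk4 each lost the call without day 2 replicate 2 and without day 4 replicate 1, and Adrb3 also without day 2 replicate 1. Ucp1 had at most 2 reads in each of the 4 libraries.

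**Figure D3:**
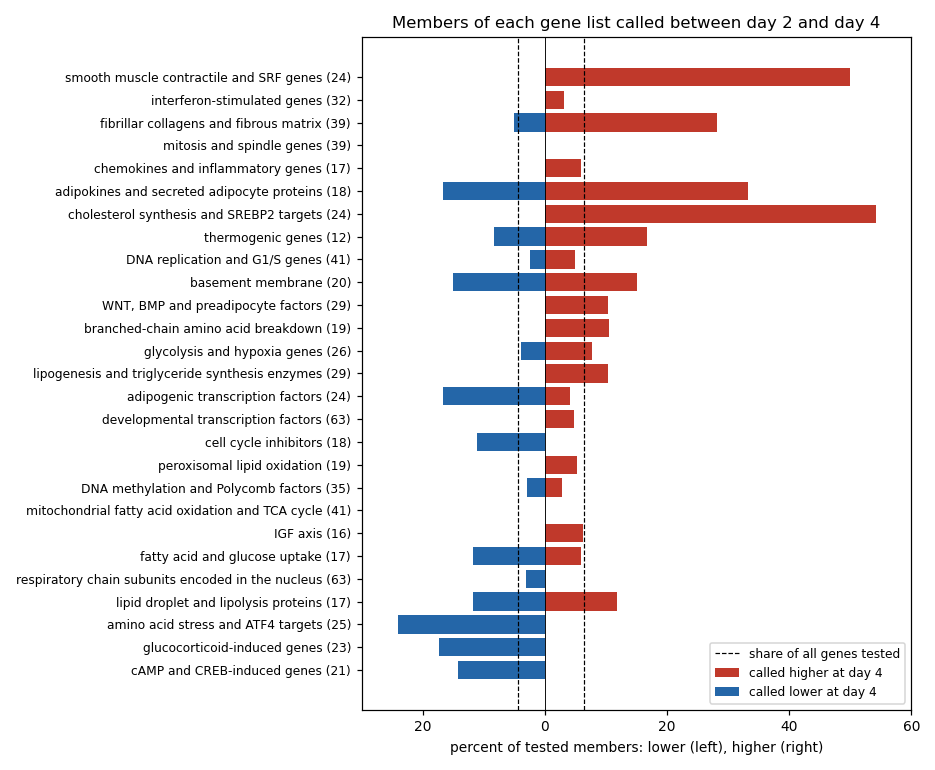
Percent of the tested members of each gene list other than the cell type markers (number in brackets) called lower (blue, to the left of 0) or higher (red, to the right) at day 4 in W330R-R181E cells, with dashed lines at the share of all genes tested, 4.33% lower and 6.38% higher; lists are ordered by their median log2 fold change. Cholesterol synthesis (54.2%) and smooth muscle genes (50%) reach farthest to the right, and ATF4 targets (24%) farthest to the left among the lists drawn.

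The values of the cell cycle genes depended on day 2 replicate 1. Of 39 mitosis and spindle genes 35 had a positive log2 fold change, with a median of 0.94, but 0 were called by edgeR, with 11 at an unadjusted p under 0.05. DESeq2 called 7 higher and 1 lower. With a replicate block edgeR called 12 higher. The mean log2 CPM of the list was 3.26 and 1.54 at day 2 and 3.66 and 3.23 at day 4, so that day 2 replicate 1 lay near the day 4 libraries. Mki67, the proliferation antigen, had 37.1 and 4.90 CPM at day 2 and 55.4 and 36.7 CPM at day 4 (log2 fold change 1.16 ± 0.62 (SE), adjusted p = 0.246). Ccnb1, cyclin B1, had 13.5 and 1.83 CPM and then 20.4 and 14.1 CPM (adjusted p = 0.191), and shares 23.4% of its sequence with copies. Without day 2 replicate 1 the list median was 2.13 and 28 members were called higher and 2 lower. Without day 2 replicate 2 it was 0.26, with 0 called. Top2a, a topoisomerase of dividing cells, went the other way, with 91.1 and 276 CPM and then 70.9 and 59.7 CPM (adjusted p = 0.0585). Of 41 genes of DNA replication and the G1/S transition, the ligase Lig1 (11.8 and 9.21 CPM, then 24.5 and 19.5 CPM) and the factor E2f1 (19.95 and 18.7 CPM, then 31.97 and 26.1 CPM) were called higher and the helicase subunit Mcm7 lower. The shares were 4.88% higher and 2.44% lower, against 6.38% and 4.33% of all genes. Of these 3 calls 2, 0, 0 and 3 were kept without the libraries in the same order. Mcm7 shares 18.1% of its sequence with other annotated genes. Btg1, an antiproliferative gene, fell from 791 and 1029 CPM to 304 and 431 CPM (2.47-fold, adjusted p = 0.00378), a call lost without day 4 replicate 1.

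**Figure D4:**
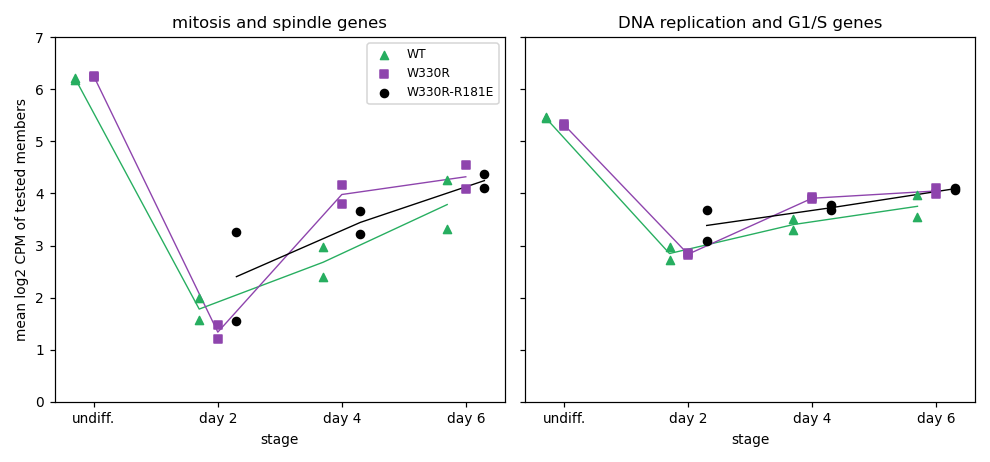
Mean log2 CPM (y axis) of the 39 mitosis and spindle genes (left) and the 41 DNA replication and G1/S genes (right) in each library by stage, with lines through the group means; green is WT, purple is W330R and black is W330R-R181E, for which no undifferentiated library was analysed here. At day 2 the W330R-R181E replicates lie at 3.26 and 1.54 for the mitosis list, whereas the W330R replicates lie at 1.47 and 1.20.

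Interferon-stimulated genes had a high median of 1.21 over 32 members with 1 called higher (3.12%), the RNA-binding protein Ifit2, at 2.38 and 0.842 CPM and then 11.4 and 6.96 CPM (adjusted p = 0.00457, lost without day 2 replicate 2). Ifit1 had 0.821 and 0.644 CPM and then 4.98 and 2.48 CPM, with an SE of 1.99 on the log2 scale (adjusted p = 0.477). Day 6 replicate 1 of the double mutant, which enters the shared spread, had 307 CPM of Ifit1 against 6.28 CPM in replicate 2. Among WNT, BMP and preadipocyte factors 3 of 29 were higher and 0 lower, with Pdgfrb, the receptor of mural and stromal precursors, at 39.7 and 24.8 CPM and then 112 and 107 CPM (3.41-fold, adjusted p = 0.00063). Pdgfrb was called without each library, whereas Bmp4 and Wisp1, the others, kept their call without day 2 replicate 2 and lost it in the other 3 such fits. In the branched-chain amino acid list, Acadsb and Ivd, both acyl-CoA dehydrogenases, were the 2 of 19 called, at 2.05-fold and 1.66-fold. Acadsb lost its call without day 2 replicate 2, and Ivd without each library. Of 35 factors of DNA methylation and Polycomb, Phf19 was called higher, from under 0.1 CPM, and Kdm2b lower (adjusted p = 0.014 and 0.0383), and both lost the call without day 2 replicate 2 and without day 4 replicate 1. Of 63 developmental transcription factors 3 were called higher (4.76%, against 6.38% of all genes), Osr1, Lhx2 and Tbx15. Osr1, a factor of embryonic mesenchyme, had 30.3 and 13.8 CPM and then 116 and 64.9 CPM. Without the 4 libraries in order 3, 0, 1 and 1 of these 3 were kept. In the chemokine and inflammatory list Il1rl1, the receptor of IL-33, was the single call of 17, at 0.493 and 0.644 CPM and then 3.83 and 3.44 CPM, and in the IGF axis Igfbp7 was the single call of 16 (2.00-fold, adjusted p = 0.00956), lost without day 2 replicate 2 and without day 4 replicate 2. The glycolysis and hypoxia list had Vegfa lower and Adm and Car9 higher among 26, the peroxisomal list Ehhadh higher among 19, and the cell cycle inhibitors Btg1 and E2f4 lower among 18. Shares called higher were 10.3% (WNT and BMP), 10.5% (branched-chain), 7.69% (glycolysis) and 6.25% (IGF). They were 5.88% (chemokine), 5.26% (peroxisomal), 2.86% (methylation and Polycomb) and 0% (cell cycle inhibitors), against 6.38% of all genes. Shares called lower were 11.1% (cell cycle inhibitors), 3.85% (glycolysis), 2.86% (methylation and Polycomb) and 0% in the others, against 4.33%. Adm and Car9 lost the call without day 2 replicate 2 and without day 4 replicate 1, and E2f4 without each library but day 2 replicate 1.

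The undifferentiated libraries gave a further point of reference, with the limit that they are of WT and W330R only. Of the 926 genes called higher, the mean of the 4 undifferentiated libraries lay above the day 4 mean in 492 (53.1%), between the days in 281 (30.3%) and below the day 2 mean in 153 (16.5%). For all 7230 genes with a higher day 4 mean in the fit these shares were 47.2%, 16.5% and 36.3%. All 13 cholesterol genes that rose were higher in undifferentiated cells than at day 4. For smooth muscle genes the count was 7 of 12 (58.3%) and for matrix genes 7 of 11 (63.6%), shares near the 53.1% of all genes called higher. Of the 6 adipokines that rose, 5 were lowest in undifferentiated cells. The summed level of 8 mesenchymal stromal markers, 15110 to 19160 CPM in undifferentiated libraries, was 1161 and 1094 CPM at day 2, 4083 and 3365 CPM at day 4 and 7681 and 6194 CPM at day 6 of the double mutant, and 3 of the 8 (Pdgfrb, Col1a2 and Col3a1) were called between day 2 and day 4. Col1a2 and Col3a1 also belong to the matrix list. Acta2 had 662 to 1239 CPM in undifferentiated libraries, above day 4 of the double mutant. From day 4 to day 6, 3 genes were called in the double mutant, with 926 at an unadjusted p under 0.05.

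The step was then set beside the same step in WT and in W330R, which share no library with it. They do share its fit and its replicate numbers. The deviations between replicates in the double mutant correlated across genes with those in WT at 0.534 at day 2 and 0.430 at day 4. With W330R they correlated at 0.233 and 0.157. The part of this in the agreement below was not tested. Of the 1555 genes called in the double mutant, 1537 had the same sign in WT and 1541 in W330R, whereas over all genes tested the shares were 80.4% and 81.9%. In WT 996 were called in the same direction, 64.1% of the calls of the double mutant and 63.6% of the 1565 calls of WT. In W330R 1027 were called in the same direction, 66% of the calls of the double mutant and 57% of the 1802 calls of W330R. Across all genes, which are not independent replicates, Pearson's r of the steps over 14520 genes was 0.545 with WT and 0.577 with W330R, as a description. Cholesterol, smooth muscle and matrix genes had medians of 0.76, 1.29 and 1.17 in the double mutant, 0.96, 1.23 and 1.01 in WT and 0.90, 1.10 and 1.01 in W330R. Cfd, Adipoq and Slc2a4 rose in all 3 genotypes, Adipoq by 2.22 in the double mutant, 3.31 in WT and 3.18 in W330R on the log2 scale. Fabp5 was at 0.05 in WT (adjusted p = 0.941) and -1.08 in W330R (adjusted p = 0.0276), beside -1.05 in the double mutant. For Fabp5 the step of the double mutant less that of WT was -1.11 ± 0.41 (SE, log2, unadjusted p = 0.0174 by edgeR). It did not pass the test across all genes.

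**Figure D5:**
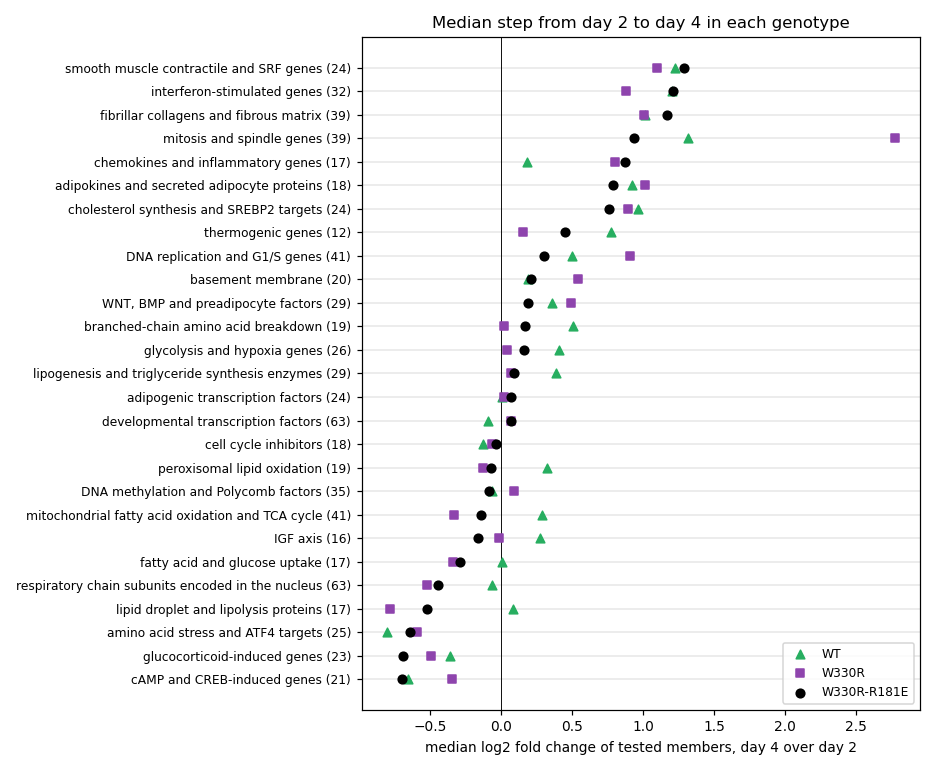
Median log2 fold change of day 4 over day 2 of the tested members of each list other than the cell type markers (number in brackets) in WT (green triangles), W330R (purple squares) and W330R-R181E (black circles), ordered by the double mutant. The smooth muscle list lies at 1.29, 1.23 and 1.10 in W330R-R181E, WT and W330R, and the mitosis list lies at 0.94 in W330R-R181E, 1.31 in WT and 2.77 in W330R.

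No gene passed the test of a difference between steps. For the step of the double mutant less that of WT, edgeR called 0 genes (0%), with 345 at an unadjusted p under 0.05 (2.38% of genes), and DESeq2 called 4. For the step of the double mutant less that of W330R, edgeR called 0 genes (0%), with 354 at an unadjusted p under 0.05 (2.44%) and a smallest adjusted p of 0.0518 (Pappa2, a protease of IGF-binding proteins), and DESeq2 called 13. The median SE of such a difference was 0.374 and 0.372 on the log2 scale, which limits the size of difference that could be detected. In the mitosis list the median difference from W330R was -1.83, 39 of 39 members were negative and 29 had an unadjusted p under 0.05, with a smallest adjusted p of 0.763. W330R itself had 35 of 39 members called higher over this step, WT 4 and the double mutant 0. For Mki67 the difference from W330R was -2.76 ± 0.91 (SE, log2; unadjusted p = 0.00853, adjusted p = 1), and that from WT was -0.63 ± 0.89 (adjusted p = 1). At day 2 the mean log2 CPM of the list was 1.47 and 1.20 in W330R, 1.99 and 1.57 in WT and 3.26 and 1.54 in the double mutant, the high value being that of replicate 1. In the G1/S list, 40 of 41 members were negative against W330R and 17 had an unadjusted p under 0.05, among them Rrm2, a subunit of ribonucleotide reductase, at -2.10 ± 0.49 (adjusted p = 0.763). Against WT, 31 of 39 mitosis genes and 30 of 41 G1/S genes were negative, with 0 and 1 at an unadjusted p under 0.05. Of the 63 respiratory chain genes, 62 were negative against WT (median -0.40) with 0 at an unadjusted p under 0.05, and 12 were negative against W330R.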

How the data were processed

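RNA was sequenced from 22 libraries (2 in each of 11 conditions), of which 4 are W330R-R181E at day 2 and day 4. Gene counts were deposited as raw read counts per gene, and per the labels the authors used kallisto (version not given in the sources used here), DESeq2 1.40 and the build GRCm39. Whole counts were used as deposited. Totals per library are given with the results. PCR copies cannot be told from separate molecules, so depth covers counting error only. Libraries were grouped by genotype and day from the labels.

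Genes with low counts were removed with filterByExpr (minimum count 10, minimum total count 15), which kept 14520 of 30170. All 22 libraries were fitted with 1 mean per condition, TMM scaling and the quasi-likelihood test of edgeR 4.0.16 in R 4.3.3, with Benjamini-Hochberg adjustment over all genes tested. The SE is the log2 fold change divided by the square root of F. Differences between steps were contrasts in the same fit. Alternatives were DESeq2 1.42.0, RLE size factors, no filter, fewer libraries, a replicate block, thinning to the smallest library and leaving out each library. The script was tested on simulated data.

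The named genes were the 10 largest rises and falls among called genes of a mean log2 CPM of at least 3 with libraries that did not overlap, leaving out clone and predicted names, and in each list its chosen anchors and the 3 called members with the smallest adjusted p. Other genes were named after their values were seen, and some genes that this rule selects are not reported here. The members and the 33 lists were chosen with earlier results of these data known. Shared sequence was the share of 50-base stretches of a gene's transcripts found in other annotated genes. Promoter windows came from RefSeq (GRCm38.p6), matched by symbol.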

Additional observations from a re-analysis of the deposited data

Results flagged for a closer look

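Col6a2, which encodes a chain of collagen VI, moved in opposite directions in the double mutant and in W330R. It fell in W330R-R181E from 3508 and 2586 CPM to 1555 and 1869 CPM (log2 fold change -0.83 ± 0.20 (SE), adjusted p = 0.0205), whereas the mean in W330R was 765 CPM at day 2 and 1025 CPM at day 4 (0.42, adjusted p = 0.193), with libraries that did not overlap. The mean in WT was 1146 and 1219 CPM (0.09, adjusted p = 0.832). The step in the double mutant less that in W330R was -1.254 (SE 0.29, log2), with an unadjusted p of 0.000649 and an adjusted p of 0.763 by edgeR, so the difference did not pass the test across all genes. The call in the double mutant was lost without day 2 replicate 1, day 4 replicate 1 or day 4 replicate 2 and in the fit of days 2, 4 and 6.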

How the results depend on the processing

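Of 87 named genes called between day 2 and day 4, 0 reversed under any alternative, and the median over all genes shifted by at most 0.03 on the log2 scale. The 1555 calls (926 higher, 629 lower) became 1522 (970 and 552) with RLE size factors, 2283 (1335 and 948) with DESeq2, 1289 (896 and 393) without the filter and 1281 (791 and 490) after thinning to the smallest library. The share called higher was 59.5%, against 69.5% without the filter. A fit of days 2, 4 and 6 gave 857 (576 and 281), and the 4 libraries alone gave 0 (0 and 0). Leaving out 1 library gave 329 to 2311 calls, 235 to 1263 higher and 60 to 1048 lower, with 82.7% higher without day 4 replicate 1. For the difference from WT, 0 calls became 4 with DESeq2 and 0 to 3 without 1 library, with 3 without day 2 replicate 2 of the double mutant. For the difference from W330R, 0 became 13 with DESeq2, 3 without the filter, 1 with a replicate block and 0 to 10 without 1 library, with 10, 1 and 2 without day 2 replicate 2, day 4 replicate 1 and day 4 replicate 2 of the double mutant and 1 without W330R day 2 replicate 2. The replicate block gave 2428 calls for the step (1350 higher, 1078 lower), among them all 1555. With it 12 mitosis genes were called higher against 0, 19 matrix genes higher against 11, and 11 respiratory chain genes, 12 ATF4 targets and 8 glucocorticoid-induced genes lower against 2, 6 and 4. The numbers are shared and nothing in the labels pairs the libraries. The deviations of the 2 pairs of this step correlated at 0.461, and those in WT and W330R at 0.438 and 0.343. Between WT and the double mutant they correlated at 0.534 at day 2 and 0.430 at day 4. Those of undifferentiated WT and of the double mutant at day 2 correlated at -0.024. The cause of the changes in calls was not tested. Depth limits genes of few reads, such as Lep and Ucp1.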
